A study of Mus musculus with 8 samples.

Results

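Cytochrome c oxidase, the last enzyme of the mitochondrial respiratory chain, is built with the help of assembly factors that are not part of the finished enzyme. The genes described here are Cox10, Cox11, Cox15, Cox17, Cox18, Sco1, Sco2 and Surf1, 8 such factors picked by name. The set was chosen by the fall of Cox15 after knockdown of Cnot7 in the authors' deposited tables, and the question was whether the other members fell with it. Of the 8 names, 7 had an entry among 23818 named genes, and all 7 were among the 13659 genes tested, whose mean over the 8 libraries reached 1 TPM. Sco2 was not analysed here.

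The oxidase carries 2 haem A groups and copper centres, and its core subunits are made inside the mitochondrion. Cox10 adds a farnesyl chain to haem and makes haem O, and Cox15, haem A synthase, converts haem O to haem A. Cox17 is a small copper chaperone of the intermembrane space that passes copper to Sco1, Sco2 and Cox11. Sco1 and Sco2 serve the copper site of subunit II, and Cox11 serves the copper site of subunit I. Surf1 acts in early assembly around subunit I, and its loss causes Leigh syndrome in humans. Cox18 is an inner membrane insertase that exports a domain of subunit II. Neurons depend heavily on oxidative phosphorylation, and defects of several of these factors damage the brain.

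The cells were primary mouse hippocampal neurons taken from embryos at day 19. Lentivirus was added after 13 to 15 days of culture and RNA was taken at day 17 to 19. Control neurons received a scrambled hairpin, and knockdown neurons received a hairpin against CNOT7, a deadenylase that shortens poly(A) tails. RNA was captured by its tail on poly(U) agarose. The total fraction was eluted at 75 °C, and the long-tail fraction was released at 75 °C after a wash at 50 °C that, per the labels, takes away tails under 50 nucleotides. This gave 4 groups of 2 libraries (scrambled total, knockdown total, scrambled long tails, knockdown long tails). The sources used here do not give the hairpin's promoter or the share of cells infected. Nor do the labels say that the 2 libraries of a group were separate cultures, so p-values measure only the spread between these samples.

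Levels are TPM (a transcript's share of its library, corrected for transcript length), which the authors rounded to whole numbers. The deposited columns summed to between 999689 and 999809, and the read depth behind them is unknown. Cnot7 was at 42 and 36 TPM in scrambled total, 12 and 16 in knockdown total, 28 and 31 in scrambled long tails and 9 and 11 in knockdown long tails, so the target was lower in every knockdown library. On the first principal component, knockdown long-tail library 2 was at 56.6 and the other libraries at −30.1 to 15.7. Its ratio to library 1 of its group ran against transcript length (Spearman rho −0.618 across 12615 genes, which are not independent), against −0.0173 to 0.376 in the other groups. Of the marker lists, all 13 neuron markers were detected, summing to 5600 to 8067 TPM over the 8 libraries. All 10 astrocyte markers (3230 to 5981 TPM) and all 12 oligodendrocyte lineage markers were also detected, Gfap at a mean of 2141 TPM beside 1316 TPM for Snap25. The cultures labelled as neurons therefore held glial RNA. Of 10 microglia markers, Aif1, Cx3cr1, Itgam and Tmem119 were at 0 in all groups and the list summed to 8 to 24 TPM.

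On the mm10 build (GRCm38, GENCODE M21 annotation), 3 of the 7 genes lie on chromosome 11. Cox10 spans 63962627 to 64079468 on the minus strand with 7 exons, Sco1 spans 67052670 to 67067070 on the plus strand with 6 exons, and Cox11 spans 90638173 to 90644931 on the plus strand with 4 exons. Cox15 lies on chromosome 19 (43733254 to 43753000, minus strand, 9 exons). Cox17 lies on chromosome 16 (38346991 to 38352763, plus strand, 2 exons in the transcript used), Cox18 on chromosome 5 (90214724 to 90224001, minus strand, 6 exons) and Surf1 on chromosome 2 (26913381 to 26916530, minus strand, 9 exons). Because the fractions were separated by poly(A) tail, the 3′ ends of the annotated transcripts were searched for the cleavage signals AATAAA and ATTAAA in their last 50 bases. AATAAA stood there in 57.4% of 21824 coding genes and ATTAAA in 15.8%. AATAAA was found in Cox11, Cox18 and Surf1 and ATTAAA in Cox17. Cox15 and Sco1 held neither hexamer in this window, and Cox10 was not searched, because its annotated transcript is tagged as having its 3′ end not found. The 4 sites are printed 5′ to 3′ on the strand of the gene, from GRCm38 transcripts, with the hexamer in capitals.
Cox11 (chr11:90644902-90644931): tgaatcagtgggttaAATAAAgtgtttgcc
Cox17 (chr16:38352715-38352744): agtatttataatttATTAAAaaacagaagg
Cox18 (chr5:90214727-90214756): caactgtccacaAATAAAgttttgtaagtt
Surf1 (chr2:26913389-26913418): caacaaccataaAATAAAgatcttgctatg

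The annotated 3′ untranslated region of Cox15 is 3467 bases long, which puts it at percentile 92.2 of 21831 coding genes, whose median is 729 bases. Sco1 has 1291 bases, Cox11 has 379, Cox18 has 275 and Surf1 has 53. Cox17 has 3419 bases in the transcript used, but another annotated transcript with the same coding sequence is only 444 bases long in all. In the last 300 bases of the transcript, on the transcript strand, the Pumilio motif TGTANATA was in 0 of the 6 members searched, against 7.86% of 21689 genes. The CPEB motif TTTTAT was likewise in 0 of 6, against 25.0%. The AU-rich pentamer ATTTA was in Cox11, Cox17 and Cox18, against 39.2%. These are matches of letters in a window and not sites shown to be used.

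Cox15 shares its start with a neighbour. In RefSeq (GRCm38.p6) its start at 43753000 and the start of Cutc, a gene on the opposite strand whose product has been linked to copper handling, at 43753023 are parted by 22 bases. The gap is shown because the genes on its 2 sides were compared below, and it reads, on the strand of Cox15, as follows.
Cox15 and Cutc gap (chr19:43753001-43753022): agcgcgagggggcgcgcacgac
RefSeq promoter windows (250 bases before to 50 after the start) matched 5 of the 7 members, Cox10, Cox11, Cox15, Sco1 and Surf1. Searched on both strands, the ETS motif CCGGAAG was in 4 of these 5, all but Cox11, and in 8.86% of all 32851 windows. The GC box GGGCGG was also in those 4, and in 35.7% of windows, while the motif of NRF-1, a regulator of respiratory genes, was in 0 of 5 and in 4.6% of windows. The window of Cutc covers part of that of Cox15 and holds the same ETS match.

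In scrambled total RNA the order of levels was Cox17, Surf1, Cox18, Cox15, Cox10, Cox11 and Sco1. Cox17 was at 107 ± 41.0 TPM (mean ± SD, n = 2 libraries, here and below) and Surf1 at 56.5 ± 6.36 TPM. Cox18 (22 ± 4.24), Cox15 (22 ± 0) and Cox10 (21 ± 1.41) did not differ beyond their spread, while Cox11 was at 12.5 ± 0.707 and Sco1 at 3.5 ± 0.707 TPM. Between Cox17 and Surf1, Surf1 and Cox18, Cox10 and Cox11, and Cox11 and Sco1, libraries of neighbours in this order did not overlap. In knockdown total RNA, Cox15 at 10 ± 0 TPM lay within the range of Cox11 (9 and 12 TPM) and below Cox10 (20 and 18 TPM).

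**Figure D1:**
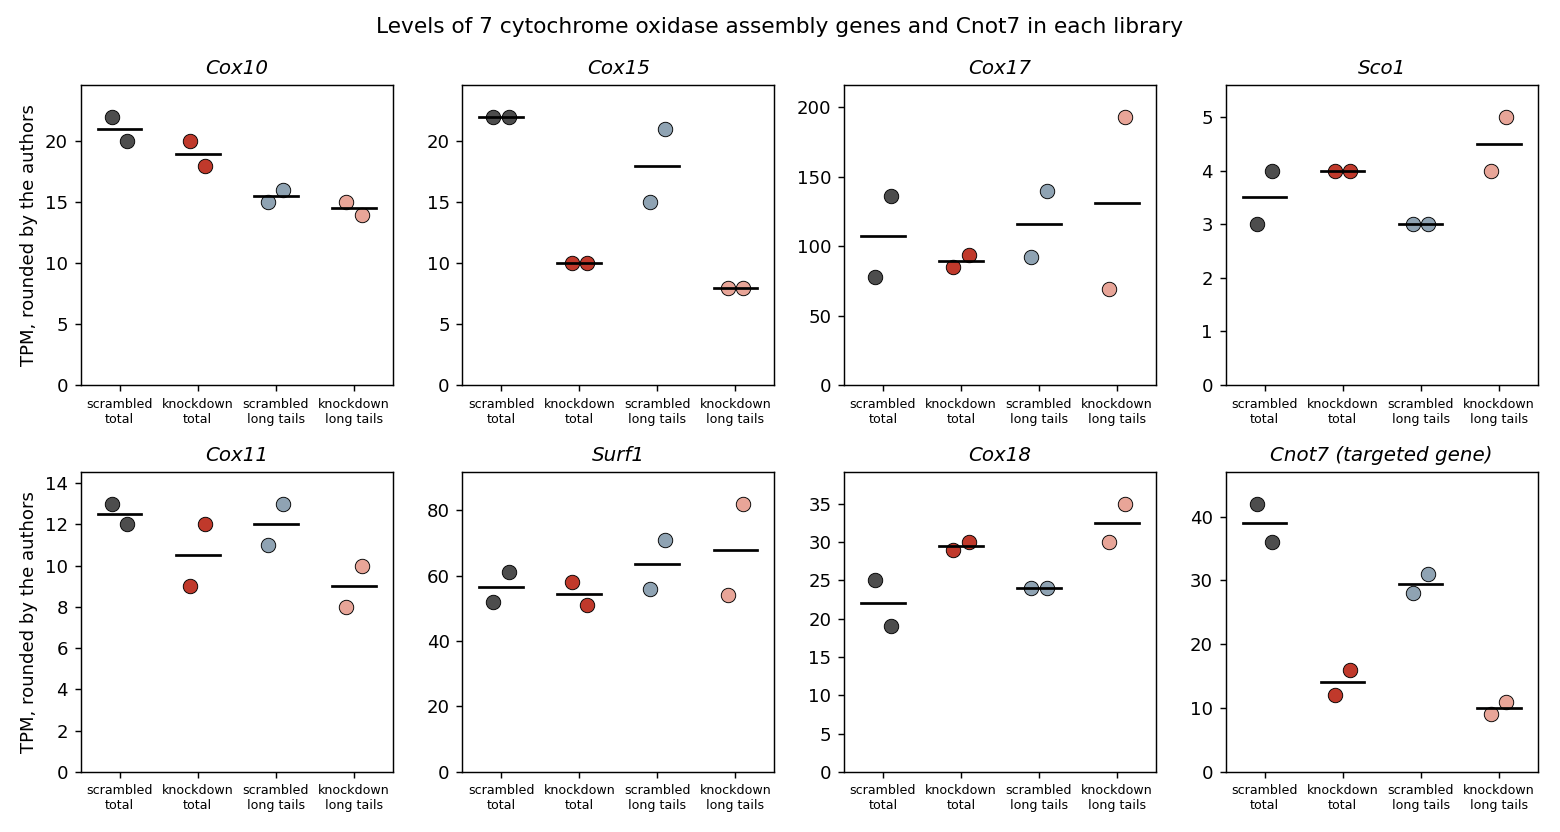
TPM (vertical axis, rounded by the authors, starting at 0) of the 7 assembly genes and the targeted gene Cnot7 in the 4 groups. Points are the 2 libraries of a group, with library 1 at the left, and bars are their mean. Cox15 stood at 15 to 22 TPM in the scrambled libraries and 8 to 10 TPM in the knockdown libraries, and Cox18 at 19 to 25 and 29 to 35 TPM.

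Cox15, the haem A synthase, was the member that fell after knockdown, and its values are a description because it was selected on this contrast. It was at 22 and 22 TPM in scrambled total RNA and at 10 and 10 TPM in knockdown total RNA. The long-tail levels were 15 and 21 TPM in scrambled and 8 and 8 TPM in knockdown neurons. The 4 knockdown libraries were all below the 4 scrambled ones. On the log2(TPM + 1) scale both fractions had a difference of −1.06 (SE 0.171, from the limma model across all genes), and it was −1.06 in long tails also without knockdown long-tail library 2. Rounding to whole TPM allows −1.16 to −0.968 in total RNA and −1.18 to −0.942 in long tails. In the authors' deposited table Cox15 had a log2 difference of −0.874 in total RNA (SE 0.185, adjusted p = 0.000836) and of −0.918 in long tails (SE 0.187, adjusted p = 0.000302). Its deposited mean in the total RNA table was 508 normalized counts. It was the only one of the 7 in either of those tables, which hold 104 and 97 genes. On the log2(TPM + 1) scale the difference of Cox15 was lower than that of nearly all other genes, at percentile 0.161 in total RNA and 0.388 in long tails.

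The fall was not seen in the other haem factor. Cox10, the haem O synthase one step before Cox15, was at 22 and 20 TPM in scrambled total and 20 and 18 TPM in knockdown total RNA. The long-tail levels were 15 and 16 TPM in scrambled and 15 and 14 TPM in knockdown. The groups touched at 20 and at 15 TPM, and the differences of −0.14 (95% confidence interval −0.44 to 0.17) and −0.09 (−0.39 to 0.21) did not pass the test. By limma no gene passed it in either fraction, Cox15 and Cnot7 included, so failing it does not set a gene apart from Cox15. Set against Cox10 within each library, which scaling does not touch, Cox15 was at ratios of 1, 1.1, 1 and 1.31 in the 4 scrambled libraries and at 0.5, 0.556, 0.533 and 0.571 in the 4 knockdown libraries.

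Among the copper factors, Cox17, the chaperone, was at 78 and 136 TPM in scrambled total and 85 and 94 TPM in knockdown total RNA. The long-tail levels were 92 and 140 TPM in scrambled and 69 and 193 TPM in knockdown. The knockdown values lay between or around the scrambled ones, and the 95% interval of the difference (−1.54 to 1.14 in total RNA) was too wide to place it. Sco1 was at 3 and 4 TPM in scrambled total, 4 and 4 in knockdown total, 3 and 3 in scrambled long tails and 4 and 5 in knockdown long tails. In total RNA 1 rounding step decides whether groups overlap, and rounding allows a difference of −0.15 to 0.47. In long tails the groups did not overlap, and rounding allows 0.145 to 0.773. Cox11, which serves subunit I, was at 13 and 12 TPM in scrambled total and 9 and 12 TPM in knockdown total RNA, with a shared value of 12. The long-tail levels were 11 and 13 TPM in scrambled and 8 and 10 TPM in knockdown, with no overlap. Its differences of −0.24 (95% interval −0.72 to 0.23) and −0.38 (−0.86 to 0.09) had the direction of Cox15. They did not pass the test, which no gene passed, Cox15 included. Without knockdown total library 1 the total RNA difference of Cox11 was −0.05, and without knockdown total library 2 it was −0.43. The long-tail difference was −0.24 without knockdown long-tail library 1.

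Surf1 was at 52 and 61 TPM in scrambled total and 58 and 51 TPM in knockdown total RNA. The long-tail levels were 56 and 71 TPM in scrambled and 54 and 82 TPM in knockdown, so the groups overlapped in both fractions. Its differences were −0.05 (95% interval −0.64 to 0.54) and 0.08 (−0.51 to 0.67). Without knockdown long-tail library 2 the long-tail difference of Surf1 was −0.22 and that of Cox17 was −0.71, where it was 0.03 with that library.

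Cox18, the insertase, lay on the other side. It was at 25 and 19 TPM in scrambled total and 29 and 30 TPM in knockdown total RNA, and at 24 and 24 TPM in scrambled and 30 and 35 TPM in knockdown long tails. All 4 knockdown libraries were above all 4 scrambled ones. The difference was 0.42 in total RNA (95% interval 0.02 to 0.82) and 0.42 in long tails (0.02 to 0.82), or 0.31 without knockdown long-tail library 2. In total RNA it was 0.23 without scrambled total library 2 and 0.61 without scrambled total library 1. By limma its unadjusted p was 0.0429 and 0.0433, and it did not pass over all genes (adjusted p = 0.77 and 0.556). Sco1 in long tails had a difference of 0.45 (adjusted p = 0.518 by limma, unadjusted 0.0259).

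**Figure D2:**
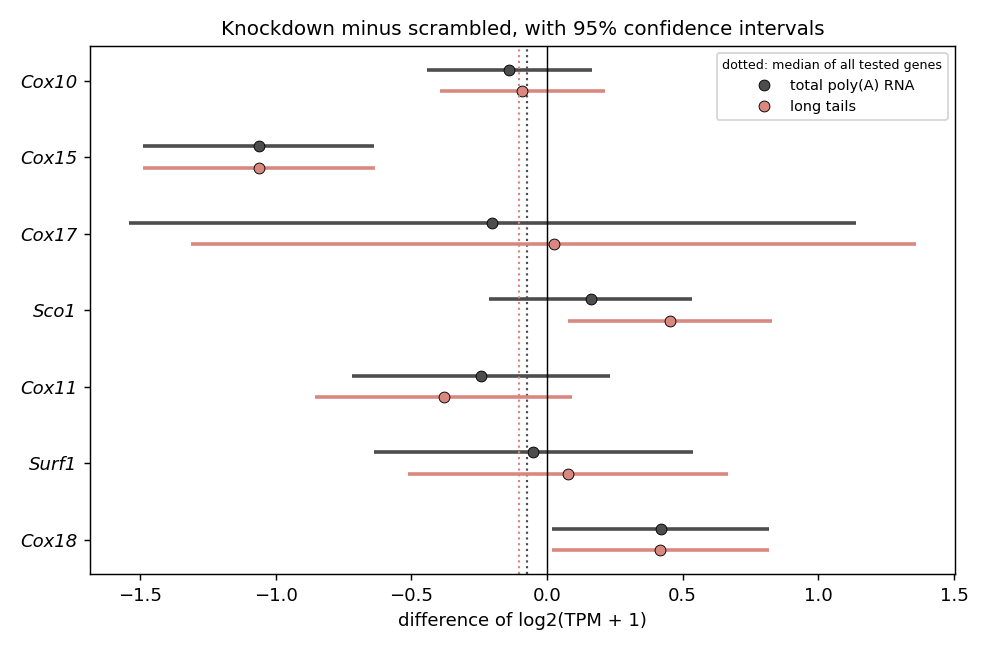
Knockdown minus scrambled difference of log2(TPM + 1) (horizontal axis) for each of the 7 genes in total RNA and in long tails. Points are estimates from the model over all 8 libraries, lines are unadjusted 95% confidence intervals, and dotted lines are the medians of all tested genes. Cox15 stood at −1.06 in both fractions, and the other 6 estimates lay between −0.38 and 0.45.

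Of the 6 members other than Cox15, limma called 0 in total RNA and 0 in long tails, at a Benjamini-Hochberg adjusted p under 0.05 over all genes. It called 0% of all 13659 genes in each fraction (smallest adjusted p by limma 0.0665 and 0.0591). At an unadjusted p under 0.05 stood Cox18 alone of the 6 in total RNA and Cox18 and Sco1 in long tails, against 6.36% and 8.72% of all genes. In total RNA 4 of the 6 had a negative and 2 a positive difference, with a median of −0.09, and 61.2% of all genes were negative with a median of −0.07. In long tails 2 of the 6 were negative and 4 positive, with a median of 0.05, against 62.2% negative and a median of −0.10 over all genes. The all-gene medians depend on scaling, and were −0.01 and 0.01 with each library centred on its median, where Cox15 was at −1 and −0.94 and Cox18 at 0.48 and 0.54.

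Counted by libraries alone, both knockdown libraries were below both scrambled ones for Cox15 in total RNA and for Cox15 and Cox11 in long tails, where 20.2% and 17.1% of all genes were. Both were above for Cox18 in total RNA and for Cox18 and Sco1 in long tails, where 8.68% and 8.9% of all genes were. Over both fractions together, 4 libraries against 4, Cox15 was the 1 member wholly below (2.05% of all genes) and Cox18 the 1 member wholly above (1.49% of all genes). The fractions may come from the same cultures, in which case these 4 libraries are not 4 separate cultures. Leaving Cox15 out, the summed level of the other 6 members was 193 and 252 TPM in scrambled total and 205 and 209 TPM in knockdown total RNA. The share of Cox15 in the sum of all 7 was 10.2% and 8.03% in scrambled total, 4.65% and 4.57% in knockdown total, 6.94% and 7.29% in scrambled long tails and 4.26% and 2.31% in knockdown long tails.

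Of the marker lists, only that of the oligodendrocyte lineage had sums without overlap between knockdown and scrambled libraries in both fractions. The summed oligodendrocyte lineage markers went from 1863 to 2044 TPM in scrambled total to 1259 to 1287 TPM in knockdown total RNA, and from 1637 to 2030 to 1097 to 1375 TPM in long tails. All 12 were lower in both fractions, with Mbp at −1.53 in total RNA on the log2 scale. Of the 10 astrocyte markers, 9 were lower in total RNA (median −0.25) and 8 in long tails (median −0.36). Of all genes, 61.2% and 62.2% were lower. The astrocyte sums overlapped, at 4692 to 5981 TPM in scrambled and 3814 to 5870 TPM in knockdown total RNA. Of the 13 neuron markers, 8 were higher in total RNA (median 0.11) and 10 in long tails (median 0.15), with Tubb3, the highest, at 0.85 and 1.03. The lowest were Gad1 in total RNA (−0.38) and Map2 in long tails (−0.65). Of the 4 microglia markers tested, 4 were lower in total RNA and 3 in long tails. The part of these cell types in the differences of Cox15 and of the other members was not tested. In bulk RNA, fewer cells of a type and less RNA per cell cannot be told apart.

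The neighbours of Cox15 were compared because their genes overlap it. In GENCODE M21, which places the start of Cutc further upstream than RefSeq does, Cutc overlaps Cox15 by 5 bases, and it was at 3 and 4 TPM in scrambled total, 4 and 4 in knockdown total, 3 and 6 in scrambled long tails and 3 and 5 in knockdown long tails. Entpd7, a nucleotide phosphohydrolase gene on the opposite strand, overlaps Cox15 by 444 bases at the 3′ ends. Entpd7 was at 10 and 9 TPM in scrambled total and 10 and 9 in knockdown total RNA, with 9 and 8 in scrambled and 9 and 3 in knockdown long tails. Groups of Cutc and of Entpd7 overlapped in both fractions, and neither passed the test, which no gene passed. The nearest gene on the left, Slc25a28, a mitochondrial iron carrier, was at 22 and 20 TPM in scrambled and 19 and 17 TPM in knockdown total RNA, with no overlap. In long tails Slc25a28 was at 18 and 20 and at 17 and 26 TPM, which overlapped. Abcc2 on the right was at 0 in every library. The sources used here do not say whether counting used the strand of reads, so reads from the 444 shared bases could go to either gene.

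Neighbours of the other members were measured the same way. Cox11 lies 88 bases from Stxbp4 and overlaps Tom1l1 by 1467 bases on the opposite strand. As with Cox15 and Entpd7, reads from these 1467 shared bases could go to either gene. Stxbp4 was at 17 and 17 TPM in scrambled and 11 and 13 TPM in knockdown total RNA, with no overlap. In long tails Stxbp4 was at 12 and 13 and at 11 and 5 TPM, also with no overlap. Tom1l1 was at 24 and 34 TPM in scrambled and 22 and 28 TPM in knockdown total RNA. Surf1 overlaps Surf2 by 164 bases head to head. Surf2 was at 34 and 36 TPM in scrambled and 53 and 38 TPM in knockdown total RNA, with no overlap, while Surf1 overlapped. Sco1 starts 75 bases from Adprm, which was at 11 and 11 TPM in scrambled and 11 and 9 TPM in knockdown total RNA. Ankrd17, 3164 bases from Cox18 and on its strand, was at 54 and 66 TPM in scrambled and 49 and 57 TPM in knockdown total RNA, so these libraries overlapped. Adamts3, on its other side and 331389 bases away, was at 20 and 17 TPM in scrambled and 25 and 27 TPM in knockdown total RNA, with no overlap, and at 12 and 12 and at 19 and 8 TPM in long tails. Among the remaining neighbours, Rpl7a was at 636 and 770 and at 778 and 651 TPM in total RNA, Surf4 at 152 and 121 and at 151 and 121, Maats1 at 3 and 5 and at 2 and 5, and Hs3st3b1 at 2 in every library. F930015N05Rik, Kif2b, Popdc2 and Myh3 were at 0 in every library. None of the neighbours tested passed, as no gene did.

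The genes whose pattern was most like that of Cox15, by Pearson correlation of log2(TPM + 1) over the 8 libraries among 11060 other genes that average 5 TPM or more, were Slc39a3 (r = 0.988), a zinc transporter, Cisd2 (r = 0.987), an iron-sulphur protein, Galnt16 (r = 0.984), a glycosyltransferase, Impa1 (r = 0.983), an inositol monophosphatase, and Rasgrf1 (r = 0.983), an exchange factor for Ras. Galnt16, for example, was at 141 and 130 TPM in scrambled total and 74 and 72 TPM in knockdown total RNA. The 8 libraries are shared by all genes, so these values are a description. Cox15 differed mainly between knockdown and scrambled libraries, the contrast it was chosen on. Its r with other genes, the members included, therefore largely repeats their knockdown differences and is no separate evidence. Of the members, Cox11 had r = 0.802 with Cox15, Cox10 had 0.514, Cox17 had 0.0852, Surf1 had −0.0829, Sco1 had −0.717 and Cox18 had −0.875.

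**Figure D3:**
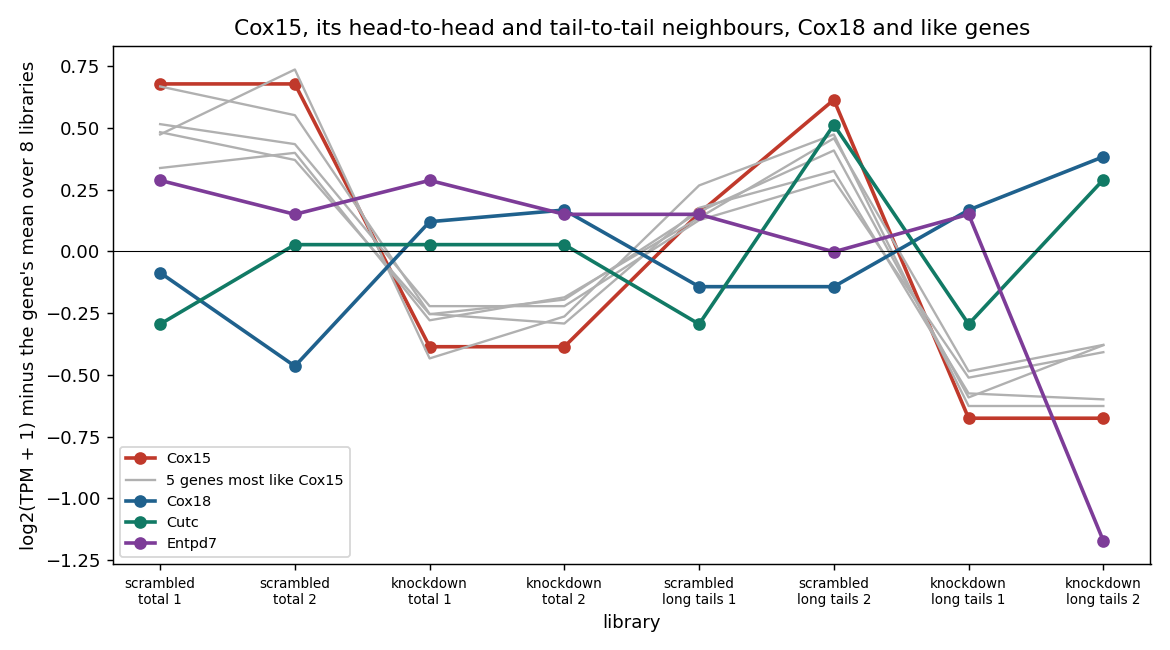
log2(TPM + 1) minus the mean of the gene over the 8 libraries (vertical axis) in each library for Cox15, the 5 genes most like it (grey), its overlapping neighbours Cutc and Entpd7, and Cox18. Lines join libraries only to guide the eye. Cox15 was low in all 4 knockdown libraries, Cox18 was high there, and Entpd7 was low only in knockdown long-tail library 2, where it was at 3 TPM.

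Other genes of the pathway came from lists compiled by function. Of 24 tested assembly factors of the oxidase other than the 7, 9 were higher, 14 lower and 1 level in total RNA, with a median of −0.09 where all genes had −0.07. In long tails 11 were higher, 12 lower and 1 level (median −0.02, all genes −0.10). Limma called 0 in each, and 0% of all genes. At an unadjusted p under 0.05 stood 1 of the 24 in total RNA and 2 in long tails, against 6.36% and 8.72% of all genes. In total RNA this was Pnkd, at 163 and 145 TPM in scrambled and 126 and 100 TPM in knockdown. Higd2a, a factor for the respiratory supercomplexes, was at 452 and 383 and at 338 and 277 TPM. Lrpprc, which stabilises mitochondrial mRNAs, was at 31 and 31 and at 40 and 35 TPM. These genes were named for their small p in total RNA. In long tails their groups overlapped, with differences of −0.12 for Pnkd, −0.11 for Higd2a and 0 for Lrpprc. None of the 24 had a difference in total RNA as low as that of Cox15, which was itself chosen for its fall. The lowest was −0.48 for Taco1, a translational activator of subunit I, which is named here after its value was seen. The 2 genes in long tails, named for the same reason, were Cmc1, at 15 and 14 TPM in scrambled and 9 and 11 TPM in knockdown, and Coa4, at 4 and 7 and at 10 and 16 TPM. The long-tail difference of Coa4 was 1.11 (adjusted p = 0.501 by limma), while in total RNA it was −0.08.

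Nuclear subunits of the oxidase itself were tested for 16 of 19 genes. In total RNA 15 were lower and 1 higher with a median of −0.12, in a range of −0.46 (Cox6b2) to 0.29 (Cox4i2, at 1 to 2 TPM). In long tails 10 were lower, 5 higher and 1 level (median −0.02). Of all genes, 61.2% were lower in total RNA (median −0.07) and 62.2% in long tails (median −0.10). Limma called 0 subunits in either fraction, and 0% of all genes. At an unadjusted p under 0.05 stood 0 subunits, against 6.36% and 8.72% of all genes. Cox7a2, for example, was at 253 and 239 TPM in scrambled and 224 and 200 TPM in knockdown total RNA. The lowest subunit difference in total RNA was short of the −1.06 of Cox15, but Cox15 was chosen for its fall, so most lists would be.

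The routes that supply haem and copper were measured through 2 further lists. Of 11 tested haem synthesis and ferredoxin genes, 8 were lower, 2 higher and 1 level in total RNA (median −0.11), and 7 were lower and 4 higher in long tails (median −0.10). Alas1, the rate-limiting enzyme of haem synthesis, was at 59 and 54 TPM in scrambled and 47 and 41 TPM in knockdown total RNA (unadjusted p = 0.0257, adjusted p = 0.677 by limma). Fech, which puts iron into haem and so makes the substrate of Cox10, was at 56 and 49 and at 45 and 45 TPM. Alad, another enzyme of haem synthesis, was at 11 and 9 and at 8 and 7 TPM. Of 13 copper genes, 10 were lower and 3 higher in total RNA (median −0.12), and 8 lower and 5 higher in long tails (median −0.10). The importer Slc31a1 was at 41 and 39 TPM in scrambled and 37 and 31 TPM in knockdown total RNA. Its relative Slc31a2 was at 11 and 12 and at 9 and 9 TPM, and the copper pump Atp7a at 5 and 7 and at 4 and 5 TPM. In long tails Alas1 was at 48 and 52 and at 45 and 48 TPM, with a shared value of 48. Limma called 0 genes of these lists in either fraction, and 0% of all genes. At an unadjusted p under 0.05 stood 1 of the 11 haem genes in each fraction, Alas1 in total RNA and Fech in long tails. Of the copper genes 0 did, against 6.36% and 8.72% of all genes. Lower were 61.2% of all genes in total RNA and 62.2% in long tails.

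Assembly factors of the other respiratory complexes (24 tested) had 10 higher, 11 lower and 3 level in total RNA, with a median of 0, and 15 higher, 8 lower and 1 level in long tails, with a median of 0.07. Ttc19, a complex III factor, was at 34 and 29 TPM in scrambled and 45 and 41 TPM in knockdown total RNA (unadjusted p = 0.0127, adjusted p = 0.593 by limma). Sdhaf2, a complex II factor, was at 29 and 34 and at 25 and 26 TPM, and Bcs1l, a complex III factor, at 26 and 22 and at 24 and 18 TPM. Of 18 general mitochondrial genes, 9 were higher and 9 lower in total RNA (median −0.01), and 8 higher and 10 lower in long tails (median −0.02). Limma called 0 of either list, and 0% of all genes. At an unadjusted p under 0.05 stood Ttc19 alone of both lists in each fraction, against 6.36% and 8.72% of all genes. Lower were 61.2% of all genes in total RNA and 62.2% in long tails. Hspd1, a matrix chaperonin, was at 120 and 154 TPM in scrambled and 196 and 191 TPM in knockdown total RNA. Vdac3, an outer membrane channel, was at 179 and 179 and at 233 and 208 TPM, and Timm23, a protein import subunit, at 202 and 159 and at 163 and 133 TPM.

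**Figure D4:**
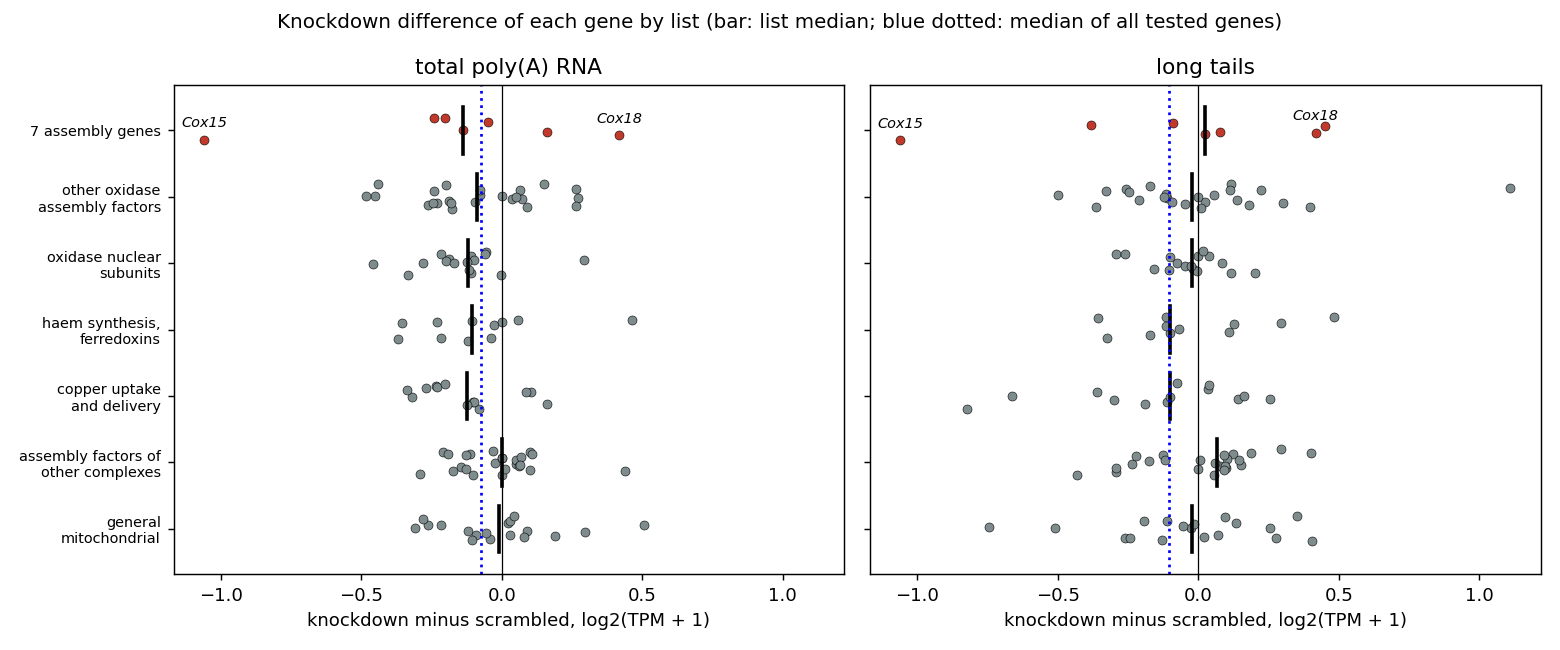
Knockdown minus scrambled difference of log2(TPM + 1) (horizontal axis) for each tested gene of 7 lists, in total RNA and in long tails. Each point is a gene, spread vertically only for legibility, black bars are list medians and the blue dotted line is the median of all tested genes. Cox15, which was chosen for its fall, stood at −1.06, below every other gene of these lists in both panels. The lists' medians lay between −0.14 and 0.07.

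Whether the members' share of the long-tail fraction differed from their share of total RNA was a comparison that played no part in choosing Cox15. Limma called 0 of the 7 in scrambled and 0 in knockdown neurons (smallest adjusted p of a member 0.377 and 0.151, for Cox10), and 0% of all genes in each. At an unadjusted p under 0.05 stood Cox10 alone in each, against 13.1% and 26% of all genes. Cox10 had differences of −0.41 (95% interval −0.72 to −0.11) in scrambled and −0.37 (−0.67 to −0.06) in knockdown neurons, with 22 and 20 TPM in total against 15 and 16 in long tails of scrambled neurons. The median of all genes was −0.22 in both comparisons, and it depends on how libraries are scaled. With each library centred on its median, all genes stood at 0.06 and 0.11, Cox10 at −0.14 and −0.04 and Cox15 at −0.02 and 0.04, so the sign for Cox15 in knockdown neurons turned while both genes stayed below the all-gene median. Cox15 was at −0.29 in scrambled and −0.29 in knockdown neurons (95% intervals −0.72 to 0.13 and −0.72 to 0.14). Cox18 was at 0.13 in each, Surf1 at 0.16 and 0.29, Cox17 at 0.14 and 0.37, Cox11 at −0.06 and −0.20 and Sco1 at −0.16 and 0.13. Against the all-gene median, 2 of the 7 were below it in each comparison, Cox10 and Cox15, but for Cox15 in scrambled neurons this rested on 1 library. Without scrambled long-tail library 1 its difference was −0.06 and the all-gene median −0.14, and without scrambled long-tail library 2 it was −0.52. In knockdown neurons the place of Cox15 depended on scaling. With quantile normalization it was at 0.07 there, above the all-gene median of 0.03.

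**Figure D5:**
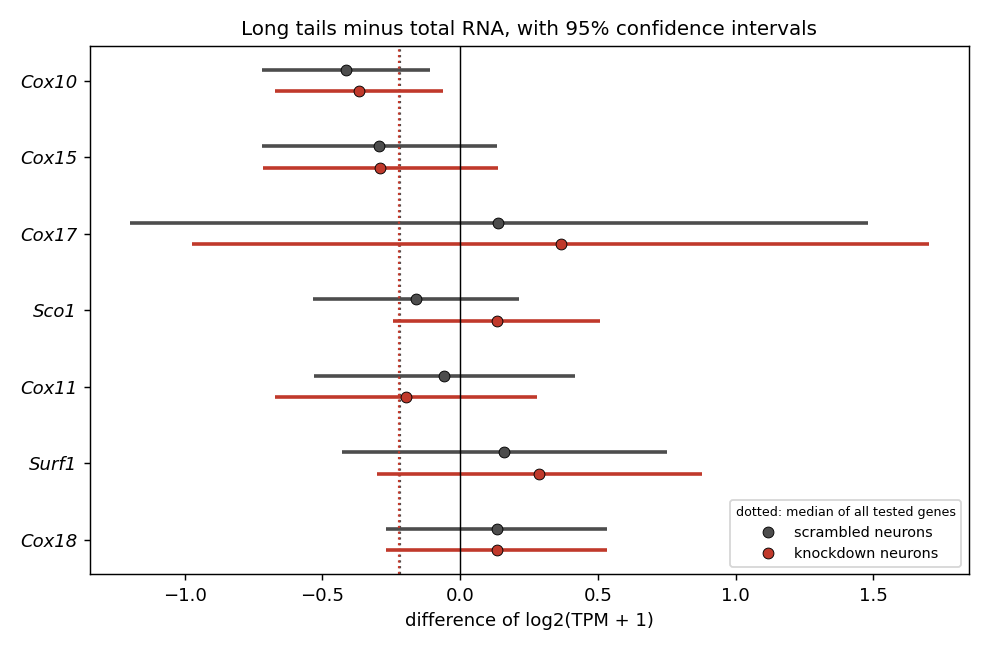
Long tails minus total RNA difference of log2(TPM + 1) (horizontal axis) for each of the 7 genes in scrambled and in knockdown neurons. Points are estimates from the model over all 8 libraries, lines are unadjusted 95% confidence intervals, and dotted lines are the medians of all tested genes, both at −0.22. Cox10 and Cox15 were the members left of those medians, and only the intervals of Cox10 lay wholly below 0.

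Whether knockdown acted differently on long tails than on total RNA was asked with the interaction, the long-tail difference minus the total RNA difference. By limma 0 of the 7 members were called (adjusted p = 1 for each), 0 had an unadjusted p under 0.05, and the same test called 0% of all genes, with 0.879% at an unadjusted p under 0.05. For Cox15 the interaction was 0.00 (95% interval −0.60 to 0.61), and for Cox18 it was 0.00 (−0.57 to 0.57). The largest was that of Sco1, at 0.29 (−0.24 to 0.82). The interval of Cox15 thus leaves room for a difference between fractions of up to about 0.6 in either direction.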

How the data were processed

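The authors deposited a table of TPM for 23845 entries in 8 libraries of mouse hippocampal neurons, rounded to whole numbers. It was treated as a score and not as counts, because rounded TPM keep no depth, and read depth is unknown. The authors also deposited tables of the genes they called in each fraction, holding a mean normalized count (a signal), a log2 fold change with its standard error (a score) and p-values, per the file headers. Their sign was turned to knockdown minus scrambled. The submitters' processing notes name CASAVA, TopHat2, RSEM, DESeq, DESeq2 and the mm10 build, with no roles.

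From the TPM, 27 date-like names were dropped. Of the rest, genes with a mean of 1 TPM or more were fitted as log2(TPM + 1) with limma 3.58.1 in R 4.3.3, with 4 group means over all 8 libraries, a mean-variance trend, 5 contrasts and Benjamini-Hochberg adjustment over all genes. The fit was run on simulated, unrounded data only to check that it recovered the mean size of known differences. Its rates of false and missed calls were not held to a limit. With 2 libraries against 2, an exact two-sided permutation test cannot go below 0.333, so none is given. The members and gene lists were chosen with earlier results of these data known. Besides the members, Cnot7, marker genes, overlapping and neighbouring genes and the 5 genes most correlated with Cox15, named genes are the 3 of each list with the smallest p in total RNA. Sequences came from GRCm38 with GENCODE M21 and from RefSeq. Alternatives were other pseudocounts, filters, scalings and variance models, the 4 libraries of a comparison alone, a replicate block, and each library left out.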

Additional observations from a re-analysis of the deposited data

How the results depend on the processing

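Under every alternative that kept both libraries of each group, limma called 0 of the members tested. These were the members other than Cox15 in the 2 knockdown comparisons, and all that passed the filter in the other 3. Counts over all genes are given below. Under every alternative run, Cox15 kept the sign of its knockdown difference in total RNA and in long tails, as did Cox18. With quantile normalization the long-tail knockdown difference of Cox10 changed sign to 0.0686 and that of Cox17 to −0.0271. With each library centred on its median, Cox10 in long tails was at 0.0269 and Surf1 in total RNA at 0.0146. Leaving out each library in turn gave −0.6 to 0.194 for Cox17 and −0.163 to 0.0636 for Surf1 in total RNA, and −0.71 to 0.761 for Cox17 and −0.22 to 0.374 for Surf1 in long tails. The number of members with a negative difference then ran from 3 to 5 in each fraction: 3 in total RNA without scrambled total library 2, and 5 in long tails without scrambled long-tail library 1 or knockdown long-tail library 2. The median of the members in long tails ran from −0.22 to 0.374. The cause was not tested. Where a group keeps 1 library, that library is assumed to vary like the other groups.

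The count of all genes called moved with the setting. It was 0 in total RNA and 0 in long tails as reported, 43 and 54 with no filter, 6 and 5 at a mean of 5 TPM, 7 and 13 at a mean of 20 TPM, 4 and 1 with quantile normalization, and 50 and 83 with only the 4 libraries of the comparison. A mean of 5 TPM leaves out Sco1 and a mean of 20 TPM leaves 3 members, so no member count or median is given there. With Rn45s removed and the rest rescaled, the count was 1 in total RNA and 1 in long tails. For long tails minus total RNA it was 0 in scrambled and 0 in knockdown neurons as reported. There it was 33 and 56 with no filter, 2 and 1 at a mean of 5 TPM, and 1 and 1 at a mean of 20 TPM. With only the 4 libraries of the comparison it was 87 and 97. The fit on 4 libraries was not run for the interaction.

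The labels number the libraries of each group alike but state no pairing. Deviations of same-numbered libraries correlated at −0.108 to 0.604 over 6 pairs of groups, with 5 over 0.1 (0.569 and 0.422 for knockdown against scrambled in total RNA and in long tails). The exception was knockdown total with knockdown long tails, so by the rule that every pair exceed 0.1 the numbers were not taken to pair the libraries. With a replicate block, limma called 0 members and 0 genes in total RNA and in long tails, where 1165 and 1612 genes had an unadjusted p under 0.05. Rounding to whole TPM limits Sco1 most.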
